A study of Mus musculus with 15 samples.

Results

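Livers of mice in the group labelled HFD-338 were compared with livers of the group labelled SD-NS, gene by gene, to ask what differed from SD-NS liver. The comparison used 6 of the 15 libraries of the series, HFD-338 replicates 17, 18 and 19 and SD-NS replicates 6, 7 and 8, which were chosen by their labels alone. All 13189 genes with enough counts were tested, out of 26264 in the table. The series describes mice with metabolic dysfunction-associated steatotic liver disease induced by a high-fat diet, and treatment with resmetirom or with Gc337, an agent that lowers STK25. The labels do not spell out SD, NS or the number in HFD-338. Strain, genotype, sex, age, dose and duration of diet are not given in the sources used here. Another group on the high-fat diet label, HFD-NS (replicates 12, 13 and 16), is quoted beside HFD-338 for orientation. HFD-338 against SD-NS and HFD-NS against SD-NS share the SD-NS libraries, so their values are set side by side and not correlated. No label states that each library came from a separate mouse, and the p-values measure only the spread between these libraries.

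Liver is built mostly of hepatocytes, which oxidise fatty acids in mitochondria and peroxisomes, export lipid as lipoprotein, make bile acids and clear ammonia as urea. Stellate cells deposit collagen when they become myofibroblasts, Kupffer cells are the resident macrophages, and sinusoidal endothelium lines the blood spaces. In injured liver, bile duct epithelium and duct-like progenitor cells can expand (the ductular reaction), some fetal genes are expressed again, and macrophages derived from blood monocytes collect around lipid and scar.

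The 3 SD-NS libraries held 3873903 to 8490747 counts and the 3 HFD-338 libraries 7079830 to 7961529. Levels are CPM, which is a gene's count over its library total after TMM scaling, and not per length. Calls are adjusted p-values under 0.05 by edgeR's quasi-likelihood test with Benjamini-Hochberg adjustment over all genes tested. A gene was tested when its counts were high enough in enough of the 15 libraries. One without a count in SD-NS was therefore tested only through other groups and could only rise. List shares and medians below are of tested members, and such genes can raise them. Of the genes tested, 48.7% were called, with 3028 rises (23.0%) and 3396 falls (25.7%). Among the calls, 1968 rises and 613 falls were at least 2-fold, and 396 rises and 37 falls were at least 8-fold. The median log2 fold change over all genes was -0.04. The levels of the 3 libraries of each group did not overlap for 7792 genes (59.1% of those tested). TMM factors ran from 0.873 to 0.919 in SD-NS and from 1.08 to 1.14 in HFD-338. With total counts and no scaling factor the median of all genes moved by 0.32 and 79% of calls were rises, against 47.1% with TMM. With TPM, a level per length, recomputed from the counts, the median moved by 0.21 and 73.4% of calls were rises. Changes below are relative to the TMM scale, and the other scales are given beside several lists with small shifts.

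**Figure D1:**
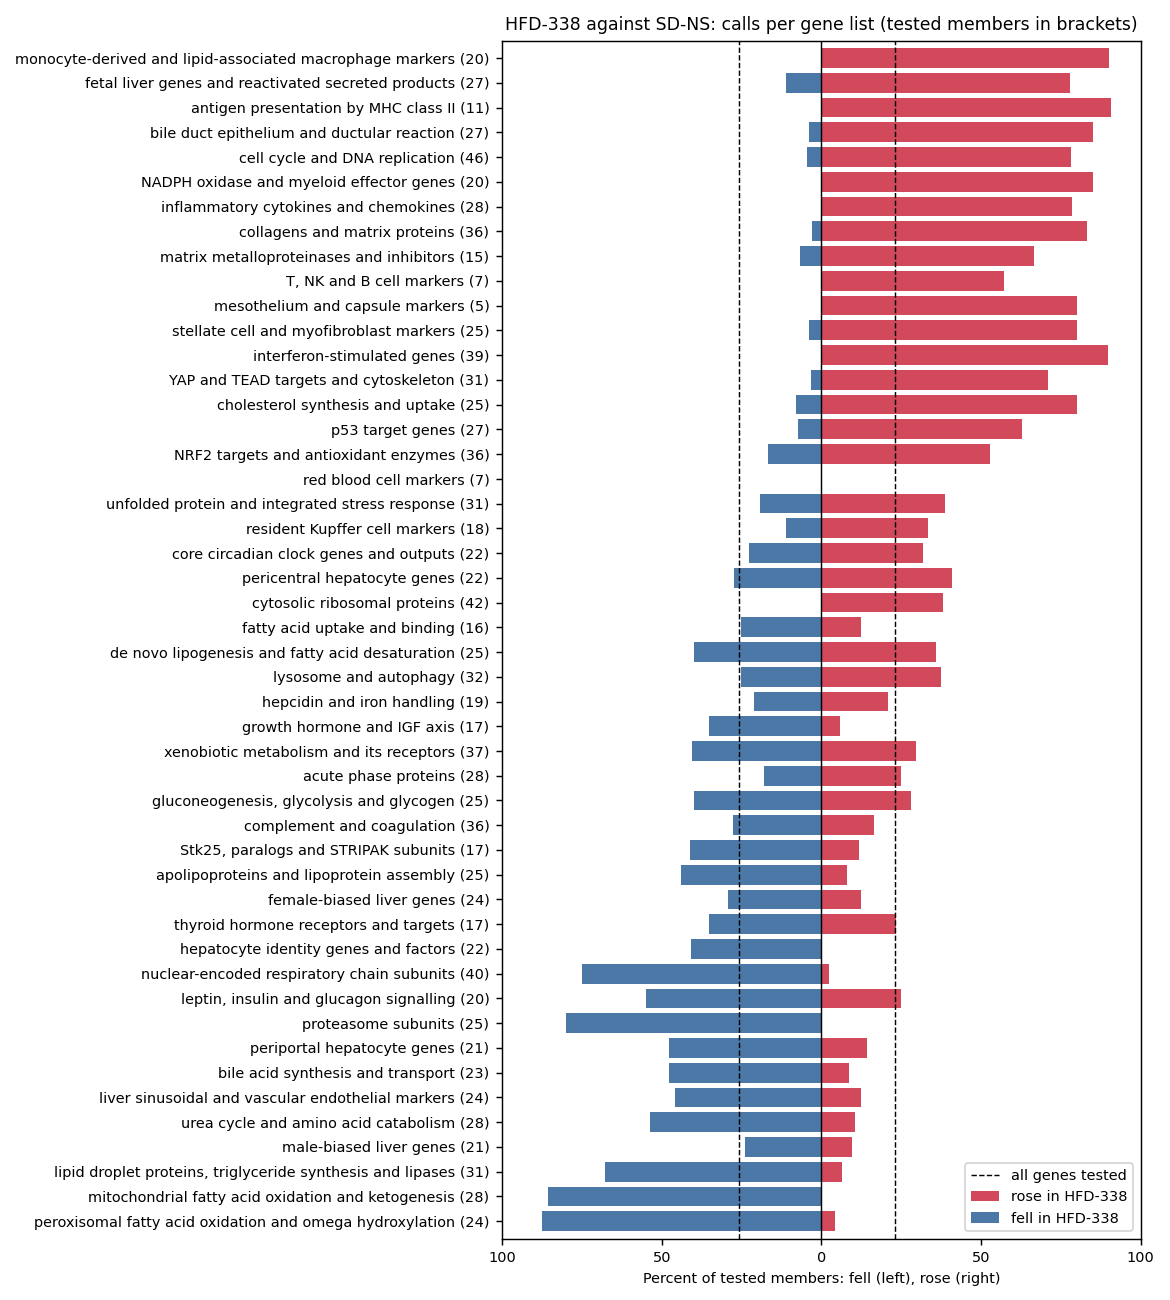
Share of the tested members of each gene list (vertical axis, number tested in brackets) that rose (red, right) or fell (blue, left) in HFD-338 against SD-NS, in percent; dashed lines mark the shares over all genes tested. Lists of macrophage, bile duct, fetal liver and cell cycle genes lie mostly to the right of the dashed line at 23.0%, and those of peroxisomal and mitochondrial fatty acid oxidation reach past the dashed line at 25.7% on the left.

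The title of the series names Stk25, a protein kinase gene on chromosome 1, 93548473 to 93563449 (mm39), and HFD-338 livers had less of its RNA. It lay at 50.6, 53.3 and 47.8 CPM in SD-NS and 22, 21.9 and 20.5 CPM in HFD-338 (adjusted p = 9.5e-08, log2 fold change -1.24, SE 0.112). Farp2 shares 23.1% of the exon length of Stk25, and the counting ignored strand, so reads of both genes cannot be told apart. Farp2 itself fell (log2 fold change -0.78, adjusted p = 2.6e-05). Stk24, the paralog of Stk25, lay at 24.4 ± 4.49 CPM in SD-NS and 21.1 ± 1.44 CPM in HFD-338 (log2 fold change -0.19, 95% interval -0.48 to 0.09, adjusted p = 0.252) and was not called. Among 17 tested members of a list of Stk25, its paralogs and subunits of the STRIPAK phosphatase complex, 2 rose and 7 fell (median log2 fold change -0.19). Rises and falls numbered 4 and 4 with total counts and no scaling factor (median 0.12) and 3 and 4 with recomputed TPM (median 0.05). In HFD-NS against SD-NS the same list had 0 rises and 4 falls (median -0.12). Ppp2r1b, a scaffold subunit of the phosphatase, fell from 36.8 to 20.3 CPM (adjusted p = 2.94e-05, log2 fold change -0.86, SE 0.129), with exon overlap over 10.8% of its length.

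Genes of bile duct epithelium were higher in HFD-338 than in SD-NS liver by a wide margin. Of 33 listed genes of bile duct and ductular reaction 27 were tested, and 23 rose and 1 fell, with a median log2 fold change of 2.75. In HFD-NS against SD-NS the same list had 3 rises and 2 falls and a median of -0.11, where 28.1% of all genes were called, with 1589 rises and 2122 falls (16.1%). Epcam, an adhesion protein of bile duct cells and hepatic progenitors (chromosome 17, 87943407 to 87958555), lay at 1.33, 1.17 and 0.563 CPM in SD-NS, 1.28, 0.869 and 0.527 in HFD-NS and 20.1, 19 and 19.8 in HFD-338. Every HFD-338 library was above every SD-NS and HFD-NS library (adjusted p = 2.38e-08, log2 fold change 4.14, SE 0.332). Tspan8, a tetraspanin of epithelial membranes, lay at 0.533, 1.36 and 2.53 CPM in SD-NS, 1.4, 0.869 and 0.527 in HFD-NS and 27.8, 36.7 and 27.4 in HFD-338 (adjusted p = 8.88e-08, log2 fold change 4.58, SE 0.385). Ehf, a transcription factor of epithelia, averaged 0.924 ± 0.297 CPM in SD-NS and 14.5 ± 1.98 CPM in HFD-338 (adjusted p = 3.67e-07, log2 fold change 3.95, SE 0.40). Prom1, a membrane protein of progenitor cells, and Cd24a, a surface glycoprotein of immature epithelium, rose by log2 fold changes of 3.74 and 3.74. The bile duct keratins rose from 0.817 to 4.82 CPM for Krt19 (adjusted p = 0.000194, log2 fold change 2.75, SE 0.499) and from 0.466 to 2.86 CPM for Krt7 (adjusted p = 0.000277, log2 fold change 2.5, SE 0.472).

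Members of this list that hepatocytes also express were among its smaller rises. Sox9, the transcription factor of duct cells and periportal hybrid hepatocytes, lay at 17.6, 17.1 and 16 CPM in SD-NS and 46.9, 35.3 and 40.05 CPM in HFD-338 (adjusted p = 0.000343, log2 fold change 1.26, SE 0.229). Cdh1, the E-cadherin gene, lay at 33.3, 29.9 and 32.9 CPM in SD-NS, 10.9, 6.08 and 5.9 in HFD-NS and 101, 103 and 88.1 in HFD-338 (adjusted p = 0.000236, log2 fold change 1.6, SE 0.255). Its level in HFD-NS was below that of SD-NS (log2 fold change -2.07, adjusted p = 0.00028), so the 2 high-fat diet groups lay on opposite sides of SD-NS. Krt8 rose from 73.3 to 133 CPM (log2 fold change 0.87), while Krt18, its partner in hepatocytes, lay at 167 ± 18.4 CPM in SD-NS and 197 ± 13.9 CPM in HFD-338 and was not called (adjusted p = 0.179, but 0.014 with total counts and no scaling factor, 0.0234 in a fit to the 6 libraries alone and 0.0395 with recomputed TPM). Aqp1, a water channel of duct and endothelium, was the 1 fall, from 46.8 to 22.6 CPM (log2 fold change -1.06, adjusted p = 0.00484, but 0.0635 in a fit to the 6 libraries alone). In bulk liver, more cells of a type and more RNA per cell cannot be told apart. Krt7 and Krt19 also mark mesothelium. Of 5 tested mesothelium and capsule markers 4 rose (Krt19, Krt7, Gpm6a and Wt1) and 0 fell. The summed level of the list was 6334 to 8323 CPM in SD-NS and 5243 to 6645 in HFD-338. C3, which hepatocytes make, holds most of that sum. The mesothelial markers Msln and Upk3b were at or under 1.44 CPM on average in HFD-338 and were not tested, and the part of capsule tissue in these results was not tested.

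**Figure D2:**
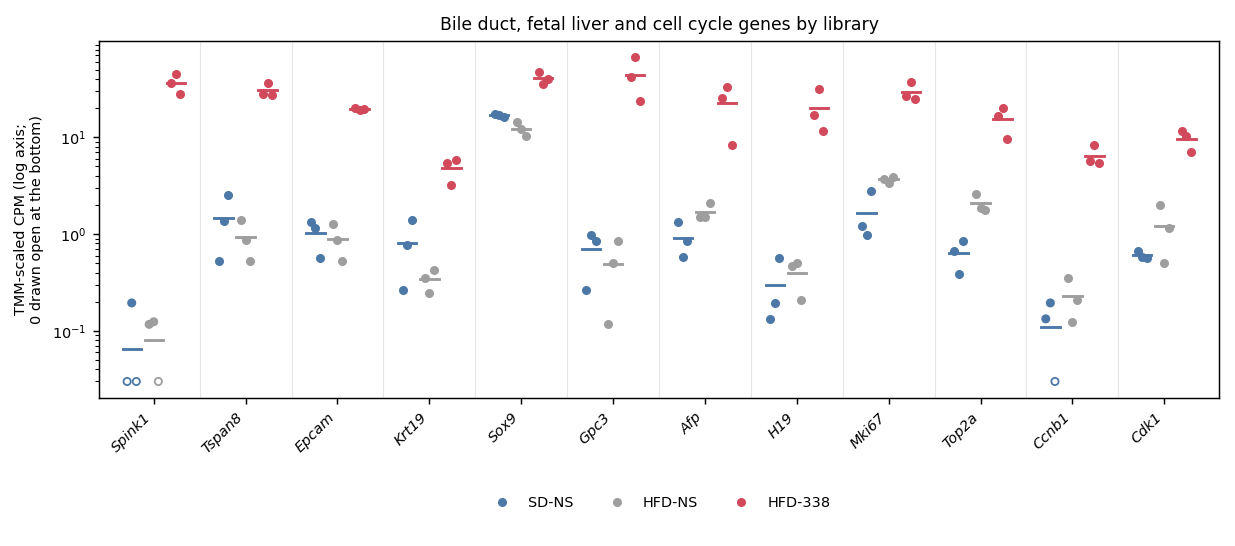
TMM-scaled CPM (log axis) of 12 genes in each library of SD-NS (blue), HFD-NS (grey) and HFD-338 (red), with 3 libraries per group; bars are group means and open circles at the bottom are libraries without a count. For each of these genes the 3 HFD-338 libraries lie above all 6 others, with Sox9 closest at 40.7 CPM on average against 16.9 in SD-NS.

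Fetal liver genes and secreted products seen in regenerating or transformed liver were high as well. Of 36 listed members 27 were tested, and 21 rose and 3 fell, with a median log2 fold change of 2.98 (in HFD-NS 5 and 3, median 0.42). Spink1, a secreted trypsin inhibitor, had 1 count in SD-NS and 897 counts in HFD-338. The libraries lay at 0, 0.194 and 0 CPM in SD-NS and 36.1, 45.1 and 28.1 CPM in HFD-338, a pooled ratio of 594 (95% counting interval 106 to 23472), adjusted p = 1.39e-08. Akr1c18, a steroid dehydrogenase that inactivates progesterone, had no count in SD-NS and lay at 10.5 CPM in HFD-338. Against a floor of 3 counts over the SD-NS group, it was at least 56.9-fold higher (adjusted p = 2.76e-05). Afp, the fetal serum protein alpha-fetoprotein (chromosome 5, 90638573 to 90656766), lay at 1.33, 0.583 and 0.844 CPM in SD-NS, 1.52, 1.49 and 2.11 in HFD-NS and 25.7, 33.4 and 8.38 in HFD-338 (adjusted p = 3.34e-05, log2 fold change 4.5, SE 0.584). Gpc3, a glypican of fetal liver and liver tumours (chromosome X, 51361304 to 51702851), lay at 0.266, 0.972 and 0.844 CPM in SD-NS, 0.117, 0.497 and 0.843 in HFD-NS and 41.7, 67.5 and 23.4 in HFD-338 (adjusted p = 5.17e-07, log2 fold change 6.11, SE 0.513). H19, the imprinted long noncoding RNA, lay at 0.133, 0.194 and 0.563 CPM in SD-NS and 17.1, 31.7 and 11.6 CPM in HFD-338 (adjusted p = 3.97e-07, log2 fold change 6.24, SE 0.591). Replicate 19 was the lowest HFD-338 library for Afp, Gpc3 and H19, and it was still above every SD-NS library. Igf2, the imprinted neighbour of H19, averaged 0.312 CPM in SD-NS and 1.71 CPM in HFD-338 and was not tested. Golm1, a Golgi membrane protein released from diseased liver, rose from 2.57 to 18.7 CPM (adjusted p = 3.59e-07, log2 fold change 2.8, SE 0.283). Ly6d, a lymphocyte antigen family member, rose from 4.5 to 98.8 CPM (log2 fold change 4.53). The falls were Aldoa, a glycolytic aldolase (log2 fold change -0.64), the imprinted gene Peg3 (-1.52, with exon overlap over 13.1%) and Igf2bp2, an RNA-binding protein (-1.95).

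Cell cycle genes formed another group that was high in HFD-338. Of 46 tested members 36 rose and 2 fell, with a median log2 fold change of 2.6. HFD-NS against SD-NS had 4 rises and 2 falls of the same list (median 0.76). Mki67, the proliferation marker of the perichromosomal layer, lay at 1.2, 0.972 and 2.81 CPM in SD-NS, 3.74, 3.35 and 3.9 in HFD-NS and 26.5, 37.4 and 25 in HFD-338 (adjusted p = 0.000161, log2 fold change 4.28, SE 0.628). Top2a, the topoisomerase that untangles chromosomes in mitosis, lay at 0.666, 0.389 and 0.844 CPM in SD-NS, 2.57, 1.86 and 1.79 in HFD-NS and 16.4, 20.2 and 9.69 in HFD-338 (adjusted p = 3.35e-07, log2 fold change 4.6, SE 0.459). Cdk1, the kinase that drives entry into mitosis, lay at 0.666, 0.583 and 0.563 CPM in SD-NS, 1.99, 0.497 and 1.16 in HFD-NS and 11.6, 10.4 and 7.07 in HFD-338 (adjusted p = 1.98e-05, log2 fold change 3.94, SE 0.552). The HFD-338 libraries were separate from both other groups for all 3 genes, and replicate 19 was the lowest HFD-338 library for each of them. Ccnb1, the cyclin partner of Cdk1, had 2 counts in SD-NS and a pooled ratio of 52.3 (95% counting interval 14.2 to 435), adjusted p = 1.28e-05. Hmmr, a spindle protein, had 1 count in SD-NS and a pooled ratio of 165 (95% counting interval 29.4 to 6560.4). Bub1, a spindle checkpoint kinase with no count in SD-NS, was at least 11.5-fold higher.

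Genes of DNA replication were not all higher. Mcm6, a subunit of the replicative helicase, rose from 2.82 to 14.6 CPM (adjusted p = 6.99e-07, log2 fold change 2.38, SE 0.254). Pcna, the sliding clamp of DNA polymerase, lay at 21.1 ± 0.0798 CPM in SD-NS and 23 ± 0.661 CPM in HFD-338 and was not called (adjusted p = 0.398, but 0.00462 with total counts and no scaling factor and 0.0103 with recomputed TPM). Ccnd1, the cyclin that opens the G1 phase, rose from 11.7 to 79.9 CPM (adjusted p = 0.000327, log2 fold change 2.77, SE 0.427), with exon overlap over 21.7% of its length. E2f8, an atypical E2F repressor, was lower in HFD-338, at 22, 36.7 and 26.2 CPM in SD-NS and 6.73, 5.81 and 3.27 CPM in HFD-338 (adjusted p = 0.000267, log2 fold change -2.4, SE 0.382). Cdk2 was the other fall (log2 fold change -0.45, adjusted p = 0.0229). That call was lost under 8 alternatives, at 0.524 with total counts and no scaling factor, 0.054 with no low-count filter, 0.0831 with DESeq2, 0.0597 in a fit to the 6 libraries alone, 0.299 with recomputed TPM, 0.114 without SD-NS replicate 8, 0.0622 without HFD-338 replicate 18 and 0.0998 without HFD-338 replicate 19. Targets of p53 were mostly higher too, with 17 rises and 2 falls among 27 (median 0.88). Eda2r, a p53-induced death receptor, lay at 0.133, 0.194 and 0.563 CPM in SD-NS, 3.97, 2.36 and 2.32 in HFD-NS and 14.8, 17.3 and 10.1 in HFD-338 (adjusted p = 6.65e-07, log2 fold change 5.72, SE 0.581). Psrc1 and Phlda3, which had 1 and 2 counts in SD-NS, had pooled ratios of 136 (95% counting interval 24.2 to 5410.3) and 61.9 (95% counting interval 16.9 to 515). Ccng1, a cyclin G induced by p53, rose by a log2 fold change of 1.63, Bax by 0.88 and Mdm2 by 0.56. Cdkn1a, the p21 inhibitor of cyclin-dependent kinases, lay at 127, 131 and 129.7 CPM in SD-NS, 91.7, 57.9 and 39.7 in HFD-NS and 116, 133 and 71.5 in HFD-338 and was not called (adjusted p = 0.52).

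Promoter windows of 3 cell cycle genes and of 2 interferon-stimulated genes, from lists whose members rose together, are shown here as RefSeq gives them in build GRCm38.p6 (250 bases before to 50 after the start, 5′ to 3′ on the gene's strand). The expression files use mm39, and no coordinate is carried between the builds. Capitals in the first 3 windows mark TTTGAA, the cell cycle homology region, and CCAAT, the box bound by NF-Y, on either strand. Capitals in the last 2 mark TTTCNNTTTC, the core of the interferon-stimulated response element, on either strand.
Cdk1 (chr10:69352863-69353162, minus strand): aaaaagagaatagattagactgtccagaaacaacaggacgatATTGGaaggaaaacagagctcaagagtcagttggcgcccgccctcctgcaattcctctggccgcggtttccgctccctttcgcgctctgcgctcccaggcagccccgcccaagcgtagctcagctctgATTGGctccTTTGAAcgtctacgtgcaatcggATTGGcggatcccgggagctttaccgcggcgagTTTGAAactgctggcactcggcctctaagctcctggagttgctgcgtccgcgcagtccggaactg
Top2a (chr11:99024140-99024439, minus strand): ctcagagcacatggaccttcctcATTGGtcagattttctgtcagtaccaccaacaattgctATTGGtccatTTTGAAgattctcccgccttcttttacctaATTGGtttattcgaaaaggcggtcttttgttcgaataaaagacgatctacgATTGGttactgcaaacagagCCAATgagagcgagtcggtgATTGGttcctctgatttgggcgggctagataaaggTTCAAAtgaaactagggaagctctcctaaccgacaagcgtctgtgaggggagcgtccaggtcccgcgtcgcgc
Ccnb1 (chr13:100786437-100786736, minus strand): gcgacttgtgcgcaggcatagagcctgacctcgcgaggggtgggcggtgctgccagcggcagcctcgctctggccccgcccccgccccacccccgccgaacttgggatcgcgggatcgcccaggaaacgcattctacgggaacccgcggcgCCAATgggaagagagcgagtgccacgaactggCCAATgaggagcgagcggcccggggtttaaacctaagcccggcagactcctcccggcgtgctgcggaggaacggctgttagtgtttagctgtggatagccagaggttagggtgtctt
Ifit1 (chr19:34640639-34640938, plus strand): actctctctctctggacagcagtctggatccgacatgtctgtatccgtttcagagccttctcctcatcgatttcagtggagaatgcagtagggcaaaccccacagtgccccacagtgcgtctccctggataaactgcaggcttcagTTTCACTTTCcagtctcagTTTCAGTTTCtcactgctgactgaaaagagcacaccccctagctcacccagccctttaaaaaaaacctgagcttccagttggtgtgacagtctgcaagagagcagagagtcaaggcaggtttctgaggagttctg
Isg15 (chr4:156200769-156201068, minus strand): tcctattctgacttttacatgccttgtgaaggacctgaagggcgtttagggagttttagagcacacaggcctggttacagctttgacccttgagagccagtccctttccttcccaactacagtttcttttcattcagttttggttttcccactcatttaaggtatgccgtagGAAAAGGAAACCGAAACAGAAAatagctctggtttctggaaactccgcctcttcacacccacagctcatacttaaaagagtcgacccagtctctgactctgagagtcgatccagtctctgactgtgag

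The window of Cdk1 held 2 TTTGAA and 3 CCAAT matches, that of Top2a 2 and 6, and that of Ccnb1 0 and 2. Of the 36 cell cycle genes that rose, 30 had a RefSeq window, and 17 of these held TTTGAA (56.7%) and 25 held CCAAT (83.3%). A gene was counted once if any of its windows held a match. Of the 10495 tested genes with a window, 14.8% held TTTGAA and 42.7% held CCAAT. Of the 2 cell cycle genes that fell, E2f8 and Cdk2, 1 held TTTGAA and 2 held CCAAT. Among the cell cycle genes that were not called, 1 of 7 with a window held TTTGAA and 3 of 7 held CCAAT. The counts that follow are also of genes with a window. TTTCNNTTTC was found for 14 of 27 interferon-stimulated genes that rose (51.9%), 3 of 4 not called (75%) and 3.84% of tested genes. Ifit1 held 2 matches and Isg15 held 3 that overlap each other. The sterol regulatory element, searched as TCACNCCAC, was found for 1 of 12 cholesterol genes that rose, Hmgcs1. It was found for 0 of 2 that fell and 0 of 3 not called (1.47% of tested genes). The call of Hmgcs1 (adjusted p = 0.0144) was lost at 0.0586 without SD-NS replicate 7. The direct repeat read by PPAR alpha, searched as AGGTCANAGGTCA, was found for 0 of 13 peroxisomal genes that fell (0.0476% of tested genes). The E-box, searched as CACGTG, was found for 2 of 5 clock genes that rose, 1 of 5 that fell and 2 of 7 not called (11.8% of tested genes). The D-box, searched as TTATGTAA, was found for 0 of the clock genes that rose or fell and for 1 of the 7 not called (0.696% of tested genes). The core of the antioxidant response element, searched as TGACNNNGC, was found for 4 of 17 NRF2 targets that rose, 3 of 6 that fell and 3 of 9 not called (16.7% of tested genes). The TATA box, searched as TATAAA, was found for 5 of 14 fetal genes that rose, 0 of 3 that fell and 0 of 2 not called (9.38% of tested genes). The endoplasmic reticulum stress element, searched as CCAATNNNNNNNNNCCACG, contains a CCAAT box. It was found for 2 of 11 stress genes that rose, 0 of 5 that fell and 3 of 13 not called (0.2% of tested genes). The site of HNF1, searched as GTTAATNATTAA, was found for 0 of 8 hepatocyte genes that fell and 0 of 11 not called (0.105% of tested genes). All searches covered both strands. A match is a description of these letters in this window, and the absence of a match says nothing of a factor acting elsewhere.

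Collagens and other matrix genes were higher in HFD-338. 30 of 36 tested members rose and 1 fell, with a median log2 fold change of 1.99 (HFD-NS 11 and 1, median 0.72). Col1a1, a chain of the main scar collagen (chromosome 11, 94827050 to 94843868), lay at 1.6, 0.972 and 2.81 CPM in SD-NS, 17.5, 18.4 and 8.64 in HFD-NS and 114, 77.7 and 68.3 in HFD-338 (adjusted p = 8.6e-05, log2 fold change 5.68, SE 0.715). Col3a1, the reticular fibre collagen, lay at 8.65, 10.9 and 8.44 CPM in SD-NS, 47.6, 60.5 and 29.7 in HFD-NS and 371, 262 and 209 in HFD-338 (adjusted p = 2.12e-05, log2 fold change 4.91, SE 0.505). For both genes the 3 groups formed separate steps with HFD-NS in the middle. Col1a2 rose from 4.86 to 113 CPM (log2 fold change 4.49). Col4a1 of the basement membrane rose from 19.7 to 69.4 CPM (log2 fold change 1.81), and the collagen crosslinking enzyme Lox, with 3 counts in SD-NS, had a pooled ratio of 28.9 (95% counting interval 9.67 to 142). Fn1, the fibronectin gene that hepatocytes express at a high level, was the 1 fall (log2 fold change -0.37, adjusted p = 0.00712, but 0.676 with total counts and no scaling factor and 0.376 with recomputed TPM).

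Stellate cell markers followed, with 20 rises and 1 fall of 25 (median 1.64). Lum, a collagen-binding proteoglycan, lay at 9.45, 8.75 and 8.72 CPM in SD-NS, 11, 13.8 and 6.22 in HFD-NS and 132, 91.7 and 56.9 in HFD-338 (adjusted p = 1.13e-05, log2 fold change 3.37, SE 0.354), with both SD-NS and HFD-NS under every HFD-338 library. Dcn, a related proteoglycan of quiescent and activated stellate cells, rose from 218 to 519 CPM (adjusted p = 0.000231, log2 fold change 1.25, SE 0.208), Pdgfrb, the PDGF receptor of stellate cells, from 4.12 to 17.1 CPM (adjusted p = 0.000145, log2 fold change 2.01, SE 0.335), and the intermediate filament gene Vim from 15.6 to 77.1 CPM (log2 fold change 2.36). Smooth muscle markers were at low levels. Acta2 rose from 0.336 to 2.17 CPM (log2 fold change 2.53, adjusted p = 0.00586, but 0.0649 without HFD-338 replicate 17). Tagln lay at 5.16 ± 1.12 CPM in SD-NS and 6.47 ± 1.48 CPM in HFD-338 and was not called (adjusted p = 0.326, but 0.0406 with total counts and no scaling factor and 0.0415 with recomputed TPM). Reln, a marker of quiescent stellate cells, lay at 50.7 ± 5.47 CPM in SD-NS and 58.4 ± 17.1 CPM in HFD-338 and was not called either (adjusted p = 0.422, but 0.0168 without HFD-338 replicate 19). Ecm1, which keeps latent TGF beta inactive, was the fall, from 72.8 to 40.1 CPM (adjusted p = 0.000451, log2 fold change -0.86, SE 0.164).

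Enzymes that cut matrix and their inhibitors rose in 10 of 15 cases and fell in 1 (median 1.97). Mmp2, a gelatinase of stellate cells, lay at 2.26, 2.53 and 1.13 CPM in SD-NS, 2.34, 2.73 and 1.37 in HFD-NS and 32.2, 23.4 and 25 in HFD-338 (adjusted p = 2.25e-08, log2 fold change 3.68, SE 0.294). Mmp7, a metalloproteinase of injured epithelium, lay at 0.266, 0 and 0.563 CPM in SD-NS and 21.5, 19.3 and 22.8 CPM in HFD-338 (adjusted p = 2.01e-08, log2 fold change 6.32, SE 0.499), with exon overlap over 11% of its length. Neither was called in HFD-NS against SD-NS. Timp1, an inhibitor of these enzymes without a count in SD-NS, was at least 13.5-fold higher in HFD-338 (adjusted p = 0.000294), and Timp2 rose from 9.26 to 36.3 CPM (adjusted p = 2.68e-06, log2 fold change 1.97, SE 0.226). Mmp14, a membrane-bound activator of Mmp2, lay at 84 ± 7.86 CPM in SD-NS and 74.9 ± 12.2 CPM in HFD-338 and was not called. Targets of YAP and TEAD and cytoskeletal genes rose in 22 of 31 cases with 1 fall (median 1.18). S100a11 rose from 2.98 to 30.2 CPM (log2 fold change 3.37). The actin-sequestering peptide gene Tmsb10 rose from 6.91 to 45.1 CPM (log2 fold change 2.7). The tubulin gene Tuba1a rose from 0.965 to 8.15 CPM (log2 fold change 3.11). The matricellular targets gave smaller rises, with Ccn1 at a log2 fold change of 0.98 and Ccn2 at 0.55 (adjusted p = 0.0284, but 0.196 without SD-NS replicate 7 and 0.101 without HFD-338 replicate 17). Yap1 itself was lower (log2 fold change -0.38, adjusted p = 0.000883, but 0.549 with total counts and no scaling factor and 0.254 with recomputed TPM).

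**Figure D3:**
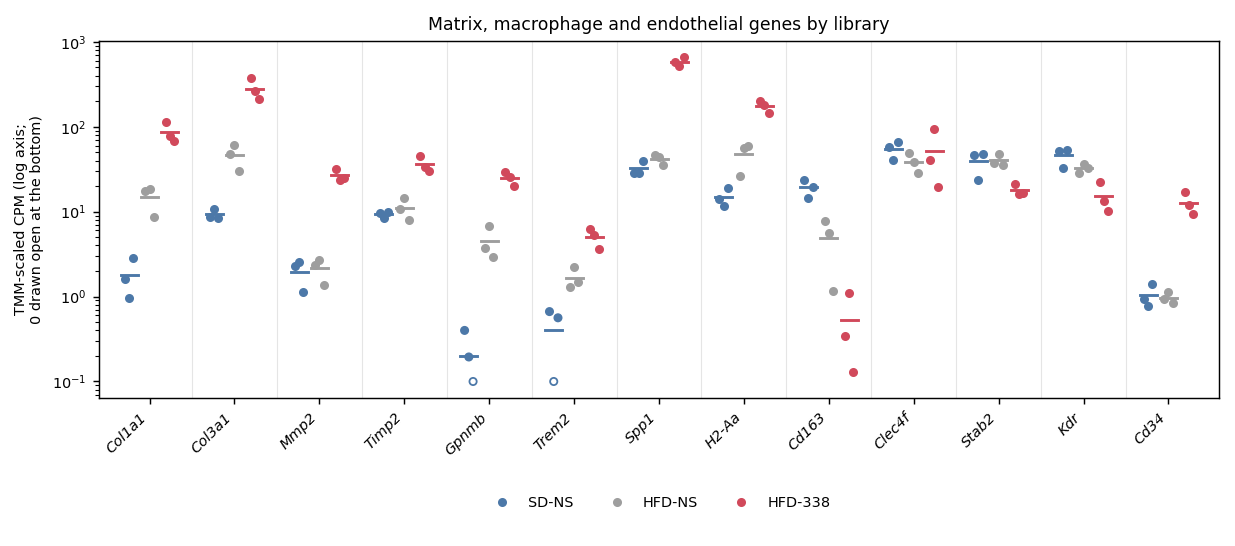
TMM-scaled CPM (log axis) of 13 matrix, macrophage and endothelial genes in each library of SD-NS (blue), HFD-NS (grey) and HFD-338 (red), 3 libraries per group; bars are group means and open circles are libraries without a count. Matrix and monocyte-derived macrophage genes are highest in HFD-338, the Kupffer cell marker Clec4f overlaps between groups, and Cd163, Stab2 and Kdr are lower.

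Macrophages that come from monocytes or hold lipid gave the marker list with the largest median of the lists with at least 5 tested members, at a log2 fold change of 3.59. 18 of 20 rose and 0 fell (HFD-NS 9 and 1, median 1.32). Gpnmb, a glycoprotein of lipid-loaded macrophages (chromosome 6, 49013452 to 49035116), lay at 0.399, 0.194 and 0 CPM in SD-NS, 3.74, 6.83 and 2.95 in HFD-NS and 29.5, 25.4 and 20.3 in HFD-338 (adjusted p = 3.92e-08, log2 fold change 6.57, SE 0.511). Trem2, the lipid receptor of these cells, lay at 0.666, 0 and 0.563 CPM in SD-NS, 1.28, 2.23 and 1.48 in HFD-NS and 6.27, 5.32 and 3.66 in HFD-338 (adjusted p = 0.000626, log2 fold change 3.52, SE 0.704). Spp1, the osteopontin gene of macrophages, duct cells and stellate cells, lay at 28.2, 28.8 and 39.9 CPM in SD-NS, 46.9, 44 and 35.6 in HFD-NS and 577, 519 and 663 in HFD-338 (adjusted p = 4.39e-05, log2 fold change 4.2, SE 0.479). HFD-338 was above HFD-NS in every library for these 3 genes. Ms4a7, a marker of monocyte-derived macrophages, rose from 0.336 to 19.6 CPM (adjusted p = 1.61e-08, log2 fold change 5.67, SE 0.437), the fractalkine receptor gene Cx3cr1 from 0.629 to 21.2 CPM (adjusted p = 7.69e-07, log2 fold change 5.19, SE 0.504), and Ccr2, the receptor that draws monocytes from blood, from 1.4 to 20.2 CPM (adjusted p = 0.000207, log2 fold change 3.99, SE 0.622). Lpl, lipoprotein lipase, which is low in adult hepatocytes and high in such macrophages, lay at 26.9, 22.7 and 26.2 CPM in SD-NS, 28, 49.3 and 37.9 in HFD-NS and 326, 327 and 318 in HFD-338 (adjusted p = 2.9e-05, log2 fold change 3.68, SE 0.402). Cd9, a tetraspanin on the same list, lay at 37.1 ± 2.89 CPM in SD-NS and 43.7 ± 6.32 CPM in HFD-338 and was not called (adjusted p = 0.184, but 0.0085 with total counts and no scaling factor, 0.0463 in a fit to the 6 libraries alone and 0.0408 without HFD-338 replicate 19).

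Resident Kupffer cell markers were mixed. Of 18 tested 6 rose and 2 fell (median 0.46), or 6 and 4 without HFD-338 replicate 18 (median -0.09). Without HFD-338 replicate 19 there were 8 rises and 1 fall (median 0.93), and without HFD-338 replicate 17 the median was 0.77. It was 0.79 with total counts and no scaling factor, 0.17 by limma-voom and 0.28 without SD-NS replicate 7. The rises included genes that all macrophages carry, such as the complement subunits C1qa (log2 fold change 1.99) and C1qb (2.03) and the surface marker Adgre1 (1.67). Clec4f, a lectin found on Kupffer cells alone among macrophages, lay at 58.3, 40.1 and 66.7 CPM in SD-NS and 40.7, 93.8 and 19.5 CPM in HFD-338, with overlapping groups (adjusted p = 0.893). Timd4, the marker of embryo-derived Kupffer cells, lay at 5.99, 2.14 and 7.31 CPM in SD-NS and 1.03, 4.08 and 0.393 CPM in HFD-338 and was not called (adjusted p = 0.11, but 0.00866 without HFD-338 replicate 18). Vsig4 lay at 18.2 ± 7.36 CPM in SD-NS and 22.9 ± 18.1 CPM in HFD-338 (adjusted p = 0.662). Cd163, the haemoglobin scavenger receptor, fell in HFD-338 and lay at 23.6, 14.6 and 19.7 CPM in SD-NS, 7.82, 5.59 and 1.16 in HFD-NS and 0.342, 1.11 and 0.131 in HFD-338 (adjusted p = 3.39e-05, log2 fold change -5.14, SE 0.648). The 3 groups did not overlap, though exons of Cd163 overlap another gene over 21.2% of their length.

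Other immune genes rose broadly. Genes of antigen presentation by MHC class II rose in 10 of 11 cases with 0 falls (median 2.95, HFD-NS 1.58). H2-Aa lay at 14, 11.7 and 19.1 CPM in SD-NS, 26.3, 55.9 and 59.9 in HFD-NS and 201, 181 and 143 in HFD-338 (adjusted p = 4.21e-05, log2 fold change 3.58, SE 0.412). Ciita, the transactivator of these genes, rose from 0.239 to 3.79 CPM (adjusted p = 0.000205, log2 fold change 3.85, SE 0.703). The H2 genes are close copies, and their counts are uncertain. NADPH oxidase and myeloid effector genes rose in 17 of 20 cases, with 0 falls (median 2.19), among them the oxidase subunit Cybb from 11.8 to 67.9 CPM (log2 fold change 2.52) and the pan-leukocyte phosphatase Ptprc from 9.11 to 45.7 CPM (2.35). Of 37 listed cytokines and chemokines 28 were tested, and 22 rose with 0 falls (median 2.05). Ccl2, the monocyte attractant, lay at 0.133, 0.583 and 0.281 CPM in SD-NS, 5.84, 4.97 and 3.16 in HFD-NS and 5.81, 7.05 and 3.01 in HFD-338 (adjusted p = 6.28e-06, log2 fold change 4.02, SE 0.522). Cxcl1, the neutrophil attractant, rose from 1.91 to 26.4 CPM (adjusted p = 0.00802, log2 fold change 3.85, SE 0.982). Cxcl10, a T cell attractant induced by interferon, lay between the other 2 groups, at 3.2, 3.31 and 2.25 CPM in SD-NS, 15.9, 20.6 and 14.7 in HFD-NS and 10.7, 9.15 and 7.85 in HFD-338 (adjusted p = 6.13e-05, log2 fold change 1.62, SE 0.262). Il6 and Tnf averaged 0.0825 and 0.407 CPM in HFD-338 and were not tested. Of 7 tested T, NK and B cell markers 4 rose with 0 falls (2 and 0 without SD-NS replicate 7), all at low levels, with Ltb rising from 0.227 to 1.92 CPM (adjusted p = 0.00246, log2 fold change 2.88, SE 0.705). Red blood cell markers gave 0 rises and 0 falls of 7 by edgeR (0 at an unadjusted p under 0.05, 1 rise with DESeq2, 0 by limma-voom). Alas2, their enzyme of haem synthesis, lay at 41 ± 4.19 CPM in SD-NS and 35.8 ± 3.98 CPM in HFD-338. Adipocyte and pancreas markers gave 0 and 0 of 3 (0 at an unadjusted p under 0.05), and Lep had no count in either group.

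Interferon-stimulated genes rose in 35 of 39 cases with 0 falls (median 1.6), and in HFD-NS against SD-NS 28 of them rose (median 1.01). Ifit1, an RNA-binding antiviral protein whose promoter is shown above, lay at 22.6, 17.1 and 23.6 CPM in SD-NS, 39.1, 48.7 and 44.1 in HFD-NS and 118, 66.5 and 88 in HFD-338 (adjusted p = 0.000296, log2 fold change 2.11, SE 0.328). Isg15, a ubiquitin-like modifier with its promoter shown beside it, lay at 5.33, 6.42 and 5.91 CPM in SD-NS, 13.4, 15.4 and 13.3 in HFD-NS and 27.5, 20.4 and 17.3 in HFD-338 (adjusted p = 0.000202, log2 fold change 1.9, SE 0.307). The 3 HFD-338 libraries lay above those of HFD-NS, but the difference was not called (log2 fold change 0.64, 95% interval 0.09 to 1.18, adjusted p = 0.0658). Oas3, a sensor of double-stranded RNA, lay at 0.666, 0.778 and 0.563 CPM in SD-NS, 1.87, 2.61 and 2.0 in HFD-NS and 12.3, 9.28 and 5.89 in HFD-338 (adjusted p = 2.52e-06, log2 fold change 3.73, SE 0.446) and was higher than HFD-NS in each library. Irf7 rose from 20.2 to 59.99 CPM (log2 fold change 1.58). Oas1a and Oas1g are close copies, and their rises (log2 fold changes 2.88 and 3.48) are uncertain for each gene.

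Endothelial markers fell more often than they rose. Of 24 tested 3 rose and 11 fell (median -0.51), against 2 and 2 in HFD-NS (median 0.08). The median was -0.19 with total counts and no scaling factor, -0.25 with recomputed TPM, -0.34 without SD-NS replicate 6 and -0.28 without HFD-338 replicate 19, with 8 falls in each. Kdr, the VEGF receptor, lay at 52.5, 32.9 and 53.4 CPM in SD-NS, 28.5, 36 and 32.7 in HFD-NS and 22.3, 13.2 and 10.1 in HFD-338 (adjusted p = 0.000207, log2 fold change -1.59, SE 0.257). Stab2, a scavenger receptor of sinusoidal endothelium (chromosome 10, 86677074 to 86843806), lay at 46.2, 23.7 and 47.3 CPM in SD-NS, 37.5, 48.2 and 35.2 in HFD-NS and 21.1, 16.3 and 16.5 in HFD-338 (adjusted p = 0.00339, log2 fold change -1.11, SE 0.263). Dnase1l3, a nuclease of the same cells, lay at 53.6, 28.8 and 45 CPM in SD-NS and 21.8, 14.7 and 11.5 CPM in HFD-338 (adjusted p = 0.000508, log2 fold change -1.41, SE 0.256). F8, coagulation factor VIII, which sinusoidal endothelium makes, fell from 17.7 to 5.6 CPM (adjusted p = 6.88e-05, log2 fold change -1.64, SE 0.26), and Lyve1, the hyaluronan receptor, from 14.9 to 7.91 CPM (adjusted p = 0.00103, log2 fold change -0.93, SE 0.205). Pecam1, carried by all endothelium, lay at 16.1 ± 3.61 CPM in SD-NS and 13.4 ± 4.35 CPM in HFD-338 and was not called (adjusted p = 0.404). Cd34, which sinusoids normally lack and capillaries carry, lay at 0.932, 0.778 and 1.41 CPM in SD-NS, 0.934, 1.12 and 0.843 in HFD-NS and 17, 12 and 9.42 in HFD-338 (adjusted p = 5.58e-07, log2 fold change 3.67, SE 0.385), with exon overlap over 5.65%. Vwf, of larger vessels, rose from 2.21 to 6.93 CPM (adjusted p = 0.00286, log2 fold change 1.65, SE 0.409). Stab1, a partner of Stab2 that macrophages carry too, lay at 29.8 ± 8.44 CPM in SD-NS and 31.2 ± 8.2 CPM in HFD-338 and was not called.

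RNA of fatty acid oxidation genes was lower in HFD-338 for both organelles, and no oxidation rate was measured. In the mitochondrial list, which also holds ketogenesis genes and regulators such as Ppara, Pdk4 and Fgf21, 24 of 28 genes fell and 0 rose. The median was -0.88 (HFD-NS 5 rises and 16 falls, median -0.33). With total counts and no scaling factor the list had 3 rises and 18 falls. Cpt1a, the gate for fatty acid entry into mitochondria, lay at 875, 924 and 924 CPM in SD-NS, 544, 638 and 559 in HFD-NS and 452, 518 and 456 in HFD-338 (adjusted p = 4.73e-06, log2 fold change -0.93, SE 0.118). Ppara, the nuclear receptor that drives this programme, lay at 525, 538 and 597 CPM in SD-NS, 348, 432 and 420.3 in HFD-NS and 217, 209 and 230.1 in HFD-338 (adjusted p = 7.01e-08, log2 fold change -1.34, SE 0.118), without overlap of the 3 groups. Acsl1, which activates long-chain fatty acids, fell from 3949 to 883 CPM (adjusted p = 1.81e-08, log2 fold change -2.16, SE 0.166). Pdk4, the kinase that spares pyruvate in fasting, fell from 253 to 37.2 CPM (adjusted p = 9.85e-05, log2 fold change -2.76, SE 0.359).

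In peroxisomes and in omega hydroxylation, 21 of 24 genes fell and 1 rose (median -1.27, HFD-NS 1 and 16, median -0.56). Ehhadh, the bifunctional enzyme of peroxisomal beta oxidation (chromosome 16, 21580035 to 21606584), lay at 6496, 6552 and 7237 CPM in SD-NS, 688, 781 and 571 in HFD-NS and 511, 540.1 and 501 in HFD-338 (adjusted p = 1.4e-11, log2 fold change -3.71, SE 0.162). Acot1, a cytosolic acyl-CoA thioesterase, lay at 554, 573 and 579.9 CPM in SD-NS, 88.5, 78.1 and 77.2 in HFD-NS and 33.4, 29.1 and 34.3 in HFD-338 (adjusted p = 4.98e-12, log2 fold change -4.14, SE 0.155), and the related Acot3 fell from 176 to 5.73 CPM (log2 fold change -4.95). These copies share sequence, and their reads could be split. HFD-338 was below HFD-NS in each library for Acot1. Cyp4a14, an omega hydroxylase and a target of PPAR alpha, lay at 13375, 13899 and 13975 CPM in SD-NS, 3132, 4106 and 3362 in HFD-NS and 558, 548 and 599 in HFD-338 (adjusted p = 1.24e-05, log2 fold change -4.6, SE 0.456). Its relative Cyp4a10 fell from 5411 to 991 CPM (log2 fold change -2.45), and both are close copies of other Cyp4a genes. Vnn1, a pantetheinase that was not called in HFD-NS against SD-NS, lay at 264, 316 and 348 CPM in SD-NS, 343, 312 and 237 in HFD-NS and 82.7, 108 and 99.6 in HFD-338 (adjusted p = 0.000111, log2 fold change -1.68, SE 0.243). 

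**Figure D4:**
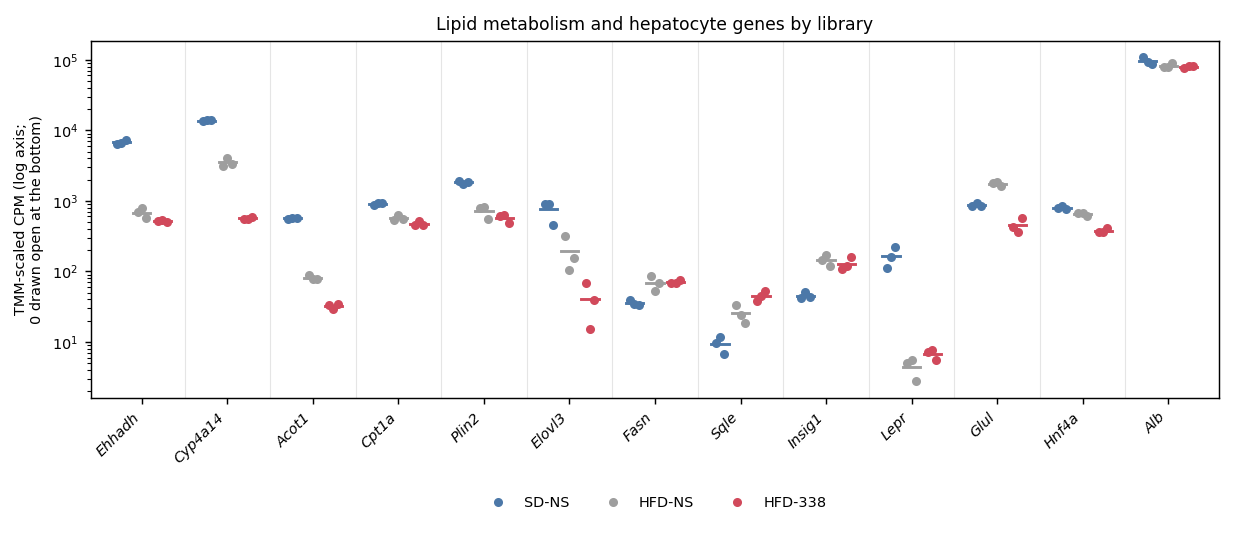
TMM-scaled CPM (log axis) of 13 genes of lipid metabolism, leptin signalling and hepatocyte identity in each library of SD-NS (blue), HFD-NS (grey) and HFD-338 (red), with 3 libraries per group and bars at the group means. Oxidation genes step down from SD-NS to HFD-NS to HFD-338, Sqle and Insig1 are higher than in SD-NS, and Alb was not called.

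RNA of lipid droplet proteins, triglyceride synthesis enzymes and lipases was lower, with 21 falls and 2 rises of 31 (median -0.88). With total counts and no scaling factor there were 5 rises and 18 falls. Plin2, the coat protein of hepatocyte lipid droplets, lay at 1912, 1732 and 1864 CPM in SD-NS, 793, 807 and 562 in HFD-NS and 616, 630.5 and 483 in HFD-338 (adjusted p = 8.19e-07, log2 fold change -1.67, SE 0.172). Plin4 and Cidec, droplet proteins of fat-laden cells, lay at 92.1, 86.1 and 52 CPM in SD-NS, 93.2, 104 and 112 in HFD-NS and 15.8, 17.4 and 19.1 in HFD-338 for Plin4 and fell from 74.8 to 17 CPM for Cidec (log2 fold changes -2.15 and -2.12). Pnpla2, the adipose triglyceride lipase, fell from 94.6 to 38.1 CPM (adjusted p = 1.24e-08, log2 fold change -1.31, SE 0.0983). The droplet enzyme Hsd17b13 fell from 889 to 314 CPM (adjusted p = 2.01e-08, log2 fold change -1.5, SE 0.119). Cidea, a droplet fusion protein of fatty liver, had 1 count in SD-NS and averaged 20.8 CPM in HFD-NS and 0.87 CPM in HFD-338, where it was not called (adjusted p = 0.318). Mogat1, a monoacylglycerol acyltransferase of fatty liver, lay between the groups at 1.33, 0.389 and 0.844 CPM in SD-NS, 16.2, 8.57 and 10.4 in HFD-NS and 3.76, 1.98 and 3.4 in HFD-338 (adjusted p = 0.0051, log2 fold change 1.72, SE 0.466). Cd36, a fatty acid translocase, lay at 75.9, 64 and 71.2 CPM in SD-NS, 472, 467 and 362 in HFD-NS and 307, 324 and 301 in HFD-338 (adjusted p = 2.48e-05, log2 fold change 2.14, SE 0.257), and was not called against HFD-NS (log2 fold change -0.48, 95% interval -1.0 to 0.04). Fabp1, the abundant fatty acid carrier of hepatocytes, fell from 7793 to 2472 CPM (adjusted p = 2.01e-08, log2 fold change -1.66, SE 0.131), with HFD-NS at 6367 CPM.

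De novo lipogenesis did not move one way, with 9 rises and 10 falls of 25 (median 0.02). Rises and falls numbered 11 and 8 with total counts and no scaling factor (median 0.33) and 10 and 8 with recomputed TPM (median 0.17). They numbered 9 and 10 in a fit to the 6 libraries alone (median -0.05), 5 and 10 without SD-NS replicate 7 (median -0.06), 5 and 11 without SD-NS replicate 8, 6 and 10 without HFD-338 replicate 17 (median -0.02) and 5 and 11 without HFD-338 replicate 19. Fasn, the fatty acid synthase, lay at 39.5, 34.4 and 33.2 CPM in SD-NS, 86.6, 52.5 and 69 in HFD-NS and 69, 68.3 and 76.6 in HFD-338 (adjusted p = 0.00103, log2 fold change 0.99, SE 0.201), with both high-fat diet groups above SD-NS. Mid1ip1, an activator of acetyl-CoA carboxylase, rose from 4.89 to 19.3 CPM (adjusted p = 0.00013, log2 fold change 1.97, SE 0.311). Acly, the source of cytosolic acetyl-CoA, rose from 59.99 to 95.1 CPM (adjusted p = 0.00478, log2 fold change 0.65, SE 0.169). Acacb, the carboxylase isoform of the mitochondrial surface, lay at 90.3, 87.5 and 85.2 CPM in SD-NS, 51.3, 29.6 and 32.4 in HFD-NS and 8.55, 9.03 and 8.25 in HFD-338 (adjusted p = 5.82e-09, log2 fold change -3.35, SE 0.199). Elovl5 and Elovl6, elongases of fatty acids, fell from 2063 to 365 CPM (adjusted p = 1.02e-09, log2 fold change -2.5, SE 0.15) and from 82.9 to 33.8 CPM (adjusted p = 0.00133, log2 fold change -1.29, SE 0.257). Elovl3, an elongase with strong daily and sex-dependent variation, fell from 758 to 40.7 CPM (adjusted p = 0.000201, log2 fold change -4.22, SE 0.592). Scd1, the main desaturase, lay at 6596, 5149 and 4865 CPM in SD-NS, 10985, 5140.3 and 11685 in HFD-NS and 1848, 1004 and 3087 in HFD-338 and was not called (adjusted p = 0.054, but 0.0137 with DESeq2, 0.0173 by limma-voom and 0.0345 without HFD-338 replicate 19), while its isoform Scd2 rose from 3.82 to 14.2 CPM (adjusted p = 3.44e-05, log2 fold change 1.88, SE 0.287). 

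Cholesterol synthesis genes were higher in 20 of 25 cases and lower in 2 (median 0.89, HFD-NS 15 and 1, median 0.62). Sqle, the squalene epoxidase, lay at 9.59, 11.9 and 6.75 CPM in SD-NS, 33.5, 24.2 and 18.3 in HFD-NS and 38, 45.4 and 52.2 in HFD-338 (adjusted p = 2.18e-06, log2 fold change 2.23, SE 0.224). Msmo1, a sterol demethylase, lay at 29.95, 28.6 and 26.2 CPM in SD-NS, 97.7, 86.2 and 66.4 in HFD-NS and 116, 112 and 146 in HFD-338 (adjusted p = 3.81e-07, log2 fold change 2.14, SE 0.191). Both were highest in HFD-338, and the 3 groups did not overlap. Insig1, the sterol-dependent brake on SREBP, rose from 45.4 to 128 CPM (adjusted p = 0.000189, log2 fold change 1.5, SE 0.234). Hsd17b7, a late enzyme of the pathway, was a fall, from 108 to 55.2 CPM (adjusted p = 3.42e-05, log2 fold change -0.97, SE 0.144).

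Genes of lipoprotein assembly fell in 11 of 25 cases and rose in 2 (median -0.21), but rises and falls were 7 and 7 with total counts and no scaling factor (median 0.10) and 5 and 8 with recomputed TPM (median 0.03). Mttp, which loads lipid onto apolipoprotein B, lay at 771, 833 and 779 CPM in SD-NS, 436, 366 and 397 in HFD-NS and 327, 322 and 314 in HFD-338 (adjusted p = 1.76e-08, log2 fold change -1.31, SE 0.101). Apob fell from 11132 to 6549.9 CPM (adjusted p = 3.98e-05, log2 fold change -0.77, SE 0.118). Bile acid genes fell in 11 of 23 cases and rose in 2 (median -0.48), with rises and falls of 7 and 7 with total counts and no scaling factor, 4 and 12 with DESeq2, 4 and 11 by limma-voom, 4 and 11 in a fit to the 6 libraries alone, 6 and 7 with recomputed TPM and 5 and 8 without HFD-338 replicate 18. Cyp8b1, the 12-alpha hydroxylase that sets the cholic acid share, lay at 511, 749 and 741 CPM in SD-NS, 501, 367 and 413 in HFD-NS and 202, 155 and 162 in HFD-338 (adjusted p = 4.68e-05, log2 fold change -1.95, SE 0.253). Slc10a1, the sodium-dependent importer of bile acids, lay at 594, 577 and 557 CPM in SD-NS, 681, 600 and 770.2 in HFD-NS and 306, 245 and 340 in HFD-338 (adjusted p = 0.000184, log2 fold change -0.96, SE 0.167). Abcc4, an exporter to blood that cholestatic liver induces, lay at 3.33, 4.67 and 3.38 CPM in SD-NS, 2.92, 3.23 and 1.9 in HFD-NS and 13.2, 17.8 and 12 in HFD-338 (adjusted p = 7.13e-06, log2 fold change 1.92, SE 0.252). Neither Slc10a1 nor Abcc4 was called in HFD-NS against SD-NS. Cyp7a1, the rate-limiting enzyme of bile acid synthesis, lay at 39.8, 152 and 98.4 CPM in SD-NS, 255, 149.7 and 189 in HFD-NS and 77, 67.9 and 53.3 in HFD-338 and was not called (adjusted p = 0.391).

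Hepatocyte identity genes fell in 9 of 22 cases and rose in 0 (median -0.26), with rises and falls of 4 and 4 with total counts and no scaling factor (median 0.06), 4 and 6 with recomputed TPM and 0 and 3 without HFD-338 replicate 18. Alb, the albumin gene, lay at 109897, 92457 and 86977 CPM in SD-NS and 75622, 82282 and 82828 CPM in HFD-338 and was not called (log2 fold change -0.27, 95% interval -0.60 to 0.07, adjusted p = 0.177). Hnf4a, the master regulator of hepatocytes (chromosome 2, 163348777 to 163414827), lay at 781, 858 and 773 CPM in SD-NS, 676, 665 and 612 in HFD-NS and 359, 357 and 407 in HFD-338 (adjusted p = 2.89e-07, log2 fold change -1.1, SE 0.109). Cebpa, another hepatocyte factor, lay at 171 ± 12.3 CPM in SD-NS and 158 ± 17.4 CPM in HFD-338 and was not called. Urea cycle and amino acid genes fell in 15 of 28 cases and rose in 3 (median -0.53), or 5 and 10 with total counts and no scaling factor and 5 and 11 with recomputed TPM. Aass, of lysine breakdown, fell from 800.4 to 279 CPM (adjusted p = 1.15e-06, log2 fold change -1.52, SE 0.162). Hal, which breaks down histidine, fell from 327 to 121 CPM (adjusted p = 0.00192, log2 fold change -1.44, SE 0.296). Otc, of the urea cycle, rose by a log2 fold change of 0.50 (adjusted p = 0.00568).

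Genes of the lobule's zones changed within both zones. Around the central vein 9 of 22 rose and 6 fell, and around the portal vein 3 of 21 rose and 10 fell (medians 0.18 and -0.43). With total counts and no scaling factor the pericentral list had 10 rises and 6 falls (median 0.49) and the periportal list 5 and 7 (median -0.12). With recomputed TPM they had 10 and 6 (median 0.37) and 3 and 7 (median -0.19). Without SD-NS replicate 7 the pericentral list had 6 rises and 6 falls (median 0.32), and its median was 0.06 without SD-NS replicate 6, 0.36 without HFD-338 replicate 18 and 0.05 without HFD-338 replicate 19. Glul, the glutamine synthetase of the innermost pericentral cells, lay at 839, 940 and 847 CPM in SD-NS, 1785, 1838 and 1615 in HFD-NS and 427, 367 and 569.9 in HFD-338 (adjusted p = 5.47e-05, log2 fold change -0.95, SE 0.151). Its neighbour in those cells, the glutamate transporter gene Slc1a2, lay at 219, 290.5 and 223 CPM in SD-NS, 266, 333 and 323 in HFD-NS and 48.7, 51.3 and 123 in HFD-338 (adjusted p = 0.00107, log2 fold change -1.72, SE 0.321). For both genes HFD-338 was below every SD-NS and HFD-NS library. Rhbg, the ammonium transporter of the same cells, rose from 1.71 to 14.9 CPM (adjusted p = 1.17e-05, log2 fold change 3.1, SE 0.406). Gulo, of vitamin C synthesis, rose from 219 to 520.5 CPM (adjusted p = 2.44e-08, log2 fold change 1.25, SE 0.101). Cyp2e1, a broad pericentral enzyme, lay at 8066 ± 238 CPM in SD-NS and 8086 ± 1370 CPM in HFD-338 and was not called. Among periportal genes Cyp2f2 fell from 750.1 to 326 CPM (adjusted p = 0.00568, log2 fold change -1.2, SE 0.298). Aldh1b1, an aldehyde dehydrogenase of progenitor cells, rose from 12 to 56.3 CPM (adjusted p = 8.48e-07, log2 fold change 2.22, SE 0.214).

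Hormone signalling genes changed in both directions, where 23.0% of all genes rose and 25.7% fell. Of 20 leptin, insulin and glucagon signalling genes 5 rose and 11 fell (median -0.40), or 8 and 6 with total counts and no scaling factor. Of 17 growth hormone and IGF genes 1 rose and 6 fell, or 4 and 6 on that scale. Of 17 thyroid hormone receptors and targets 4 rose and 6 fell, or 8 and 6 on that scale and 1 and 6 without SD-NS replicate 7. Lepr, the leptin receptor gene (chromosome 4, 101574604 to 101672549), lay at 111, 158 and 221 CPM in SD-NS, 5.02, 5.59 and 2.74 in HFD-NS and 7.07, 7.67 and 5.5 in HFD-338 (adjusted p = 6.99e-07, log2 fold change -4.58, SE 0.341), and HFD-338 was not called against HFD-NS (log2 fold change 0.62, 95% interval -0.28 to 1.52, adjusted p = 0.267). Irs2, the insulin receptor substrate raised in fasting, lay at 57.2, 56.6 and 50.3 CPM in SD-NS, 19.7, 16.1 and 18.2 in HFD-NS and 19.5, 19.5 and 16.6 in HFD-338 (adjusted p = 9.72e-07, log2 fold change -1.56, SE 0.17), and Igfbp1, the insulin-repressed binding protein, at 253, 309 and 363 CPM in SD-NS, 39.4, 48.3 and 18.2 in HFD-NS and 88.2, 132 and 70.8 in HFD-338 (adjusted p = 0.00473, log2 fold change -1.66, SE 0.388). Insr fell from 243 to 166 CPM (adjusted p = 3.3e-05, log2 fold change -0.55, SE 0.083). Foxo1 fell from 88.4 to 35.7 CPM (adjusted p = 1.11e-07, log2 fold change -1.31, SE 0.12). Igf1 fell from 1042 to 636 CPM (adjusted p = 0.000685, log2 fold change -0.71, SE 0.149). Enho, the adropin gene, rose from 2.6 to 19.9 CPM (adjusted p = 1.04e-05, log2 fold change 2.99, SE 0.359). Hr, a thyroid hormone-induced corepressor, rose from 0.389 to 9.56 CPM (adjusted p = 0.000327, log2 fold change 4.61, SE 0.80), and the receptor gene Thrb fell from 41.7 to 27.5 CPM (adjusted p = 0.000504, log2 fold change -0.61, SE 0.123). Dio1, the deiodinase that thyroid hormone induces, lay at 57.2, 86.1 and 45.3 CPM in SD-NS, 143, 142 and 124 in HFD-NS and 32.4, 45.1 and 39.4 in HFD-338 and was not called against SD-NS (adjusted p = 0.0545, but 0.0229 with DESeq2 and 0.0204 without SD-NS replicate 8).

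Sex-biased genes, which growth hormone patterns set in liver, changed in both directions. Of 21 male-biased genes 2 rose and 5 fell, and of 24 female-biased genes 3 rose and 7 fell, where 23.0% of all genes rose and 25.7% fell. Some lists share members. Among the female-biased falls, Acot3, Cyp4a14 and Cyp4a10 are also counted in the peroxisomal list, and the rise of Prom1 in the bile duct list. Elovl3, a male-biased fall, is also counted with lipogenesis. Cyp2a4, a female-biased steroid hydroxylase, lay at 2.93, 4.67 and 3.66 CPM in SD-NS, 3.97, 11.9 and 6.11 in HFD-NS and 198, 386 and 197 in HFD-338 (adjusted p = 2.14e-06, log2 fold change 6.14, SE 0.479). Cyp17a1, of steroid synthesis, lay at 77.7, 75.4 and 84.7 CPM in SD-NS, 52, 58.4 and 88.2 in HFD-NS and 5.93, 5.32 and 6.41 in HFD-338 (adjusted p = 1.68e-06, log2 fold change -3.75, SE 0.314). Ces2e, a male-biased carboxylesterase, rose from 136 to 445 CPM (adjusted p = 1.08e-08, log2 fold change 1.71, SE 0.126). Selenbp2 lay at 6.12, 57.9 and 7.03 CPM in SD-NS and 235, 152 and 165 CPM in HFD-338 and was not called (adjusted p = 0.055, but 0.0358 with total counts and no scaling factor, 0.0122 with DESeq2, 0.0121 by limma-voom, 0.00974 with recomputed TPM and 0.0229 without SD-NS replicate 7). Mup7, a major urinary protein gene, fell from 1291 to 16.8 CPM (log2 fold change -6.27, adjusted p = 0.00652). Mup3 fell too, while Mup20, on the same male-biased list, rose. Reads of Mup, Cyp2a and Cyp2b genes could be split among close copies.

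Xenobiotic and antioxidant enzymes changed in both directions. NRF2 targets rose in 19 of 36 cases and fell in 6 (median 0.64), or 23 and 3 with total counts and no scaling factor. Gpx2, a glutathione peroxidase of gut epithelium, had no count in SD-NS and lay at 7.28 CPM in HFD-338, at least 39.7-fold higher (adjusted p = 3.55e-06). Cbr3, a carbonyl reductase, lay at 0.533, 0.389 and 0.281 CPM in SD-NS, 0.234, 0.372 and 0.527 in HFD-NS and 16.6, 33.9 and 15.4 in HFD-338 (adjusted p = 2.19e-08, log2 fold change 5.62, SE 0.448). Slc7a11, the cystine importer, had 2 counts in SD-NS and a pooled ratio of 108 (95% counting interval 29.7 to 897). Gstm3, which has close copies, rose from 6.07 to 171 CPM (adjusted p = 8.98e-06, log2 fold change 4.72, SE 0.445). Nqo1 rose from 7.33 to 33.8 CPM (adjusted p = 2.3e-06, log2 fold change 2.19, SE 0.247). Gclm and Gclc, the subunits of an enzyme of glutathione synthesis, were not called. Gclm lay at 159 ± 15.1 CPM in SD-NS and 144 ± 4.91 CPM in HFD-338. Gclc lay at 377 ± 48.3 CPM in SD-NS and 315 ± 55 CPM in HFD-338 (adjusted p = 0.134, but 0.0474 without HFD-338 replicate 18). Sod1, the cytosolic superoxide dismutase, fell from 958 to 616 CPM (adjusted p = 4.62e-05, log2 fold change -0.64, SE 0.10). Ces2a fell from 289 to 41.2 CPM (adjusted p = 3.86e-08, log2 fold change -2.81, SE 0.19). Cyp2c29 fell from 1077 to 194 CPM (adjusted p = 1.65e-05, log2 fold change -2.48, SE 0.278). Cyp3a11 fell from 6983 to 2682 CPM (adjusted p = 0.00434, log2 fold change -1.38, SE 0.327). Both cytochromes have close copies. Cyp2a5 rose from 168 to 927 CPM (adjusted p = 0.000236, log2 fold change 2.47, SE 0.369).

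Housekeeping complexes shifted by small amounts that depended on the scale. Respiratory chain subunits had 30 falls and 1 rise of 40 (median -0.37), and rises and falls were 6 and 4 with total counts and no scaling factor, 3 and 9 with recomputed TPM and 2 and 17 without HFD-338 replicate 18. Ndufb9, of complex I, lay at 225, 185 and 198 CPM in SD-NS, 209, 185 and 212 in HFD-NS and 119, 106 and 136 in HFD-338 (adjusted p = 4.47e-05, log2 fold change -0.75, SE 0.118). Cox4i1, of complex IV, fell from 377 to 256 CPM (adjusted p = 0.000144, log2 fold change -0.56, SE 0.0984). Ucp2, an uncoupling protein of macrophages, was the rise, from 10.4 to 50.6 CPM (adjusted p = 0.00205, log2 fold change 2.27, SE 0.462). Proteasome subunits had 20 falls and 0 rises of 25 (median -0.42), or 2 and 9 with total counts and no scaling factor and 0 and 9 with recomputed TPM. Psmd4, its ubiquitin receptor, fell from 199 to 95.6 CPM (adjusted p = 4.41e-08, log2 fold change -1.06, SE 0.0897). Cytosolic ribosomal proteins had 16 rises and 0 falls of 42 (median 0.14), or 36 and 0 with total counts and no scaling factor, 30 and 0 with recomputed TPM, 10 and 0 without SD-NS replicate 6, 10 and 0 without SD-NS replicate 7 and 9 and 0 without HFD-338 replicate 17. In HFD-NS against SD-NS the same list had 0 rises and 34 falls (median -0.39). Rpl38 lay at 124, 109.8 and 128 CPM in SD-NS, 98.6, 87.3 and 98 in HFD-NS and 179, 167 and 164 in HFD-338 (adjusted p = 0.00183, log2 fold change 0.50, SE 0.117).

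Stress genes of the endoplasmic reticulum were mixed, with 12 rises and 6 falls of 31 (median 0.54), and rises and falls of 14 and 3 with total counts and no scaling factor, 13 and 3 with recomputed TPM, 4 and 5 without SD-NS replicate 6, 6 and 6 without SD-NS replicate 8 and 5 and 5 without HFD-338 replicate 17. Sdf2l1, a chaperone partner, rose from 12.1 to 43.8 CPM (adjusted p = 0.0112, log2 fold change 1.9, SE 0.518). Herpud1, of protein degradation, lay at 421, 667 and 519.8 CPM in SD-NS, 866, 831 and 626 in HFD-NS and 271, 208 and 324 in HFD-338 (adjusted p = 0.0014, log2 fold change -1.0, SE 0.211). Atf5 fell from 613 to 178 CPM (adjusted p = 3.76e-09, log2 fold change -1.78, SE 0.121). Hspa5, the main chaperone, lay at 1150.2 ± 426 CPM in SD-NS and 1750.3 ± 108 CPM in HFD-338 and was not called (adjusted p = 0.085, but 0.0159 with total counts and no scaling factor, 0.0261 with DESeq2, 0.0421 by limma-voom, 0.0216 with recomputed TPM and 0.0102 without SD-NS replicate 7). Genes of acute phase proteins rose in 7 of 28 cases and fell in 5 (median -0.07), where 23.0% of all genes rose and 25.7% fell. With total counts and no scaling factor this list had 8 rises and 2 falls. Among its rises Lcn2, lipocalin 2, lay at 2.0, 4.28 and 6.47 CPM in SD-NS, 33.3, 98.8 and 34.2 in HFD-NS and 181, 324 and 49.2 in HFD-338 (adjusted p = 0.00212, log2 fold change 5.59, SE 1.13). Serpina3n rose from 259 to 608 CPM (adjusted p = 1.09e-05, log2 fold change 1.23, SE 0.162). Crp and Lbp fell (log2 fold changes -0.71 and -0.76). Saa1 lay at 141 ± 131 CPM in SD-NS and 207 ± 53.1 CPM in HFD-338 and was not called, with counts that its close copies make uncertain. Of 22 clock genes and outputs 7 rose and 5 fell (median 0.22). Rises and falls were 10 and 4 with total counts and no scaling factor, 3 and 4 without SD-NS replicate 6 and 3 and 5 without HFD-338 replicate 19. Nr1d1, a clock repressor with a strong daily rhythm, lay at 7.32, 7.78 and 14.1 CPM in SD-NS, 49.7, 68.3 and 68.9 in HFD-NS and 22.1, 20.04 and 32.7 in HFD-338 (adjusted p = 0.000124, log2 fold change 1.43, SE 0.23). Bhlhe40 rose from 28.9 to 66.4 CPM (adjusted p = 0.00232, log2 fold change 1.2, SE 0.261). Arntl lay at 31.3, 33.2 and 36 CPM in SD-NS, 22.3, 12.4 and 8.96 in HFD-NS and 24.2, 23.7 and 17.9 in HFD-338 and was not called (adjusted p = 0.109, but 0.037 by limma-voom and 0.00294 in a fit to the 6 libraries alone). Time of sampling is not given in the sources used here, and its part in these values was not tested.

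Some genes stood in HFD-338 where they stood in HFD-NS, which means here that the 95% interval of their difference lay within 1.5-fold. Nsdhl, of cholesterol synthesis, lay at 9.98, 10.5 and 10.7 CPM in SD-NS, 31.8, 24.6 and 24.2 in HFD-NS and 29.6, 34.9 and 30.6 in HFD-338 (adjusted p = 5.7e-08, log2 fold change 1.61, SE 0.14), and its difference from HFD-NS had an interval of -0.01 to 0.49. Akr1c20, an aldo-keto reductase, lay at 40.5, 45.1 and 42.2 CPM in SD-NS, 136, 139 and 142 in HFD-NS and 116, 115 and 140 in HFD-338 (adjusted p = 3.73e-09, log2 fold change 1.54, SE 0.103, interval against HFD-NS -0.37 to 0.04). Smad7, the inhibitor of TGF beta signals, rose from 6.06 to 16.9 CPM with HFD-NS at 15 CPM, and Id3, a target of BMP signals, from 12.6 to 35 CPM with HFD-NS at 36.4 CPM. On the lower side, Gk, the glycerol kinase, lay at 619, 717 and 666 CPM in SD-NS, 285, 289.8 and 266 in HFD-NS and 231, 277 and 254 in HFD-338 (adjusted p = 4.64e-08, log2 fold change -1.39, SE 0.119, interval against HFD-NS -0.39 to 0.10). Hsdl2, a peroxisomal dehydrogenase, lay at 515, 549 and 486 CPM in SD-NS, 225, 197 and 181 in HFD-NS and 172, 174 and 171 in HFD-338 (adjusted p = 1.73e-09, log2 fold change -1.58, SE 0.0993). Pxmp4, a peroxisomal membrane protein, fell from 155 to 58.7 CPM with HFD-NS at 74.7 CPM. Steap2, a metalloreductase, fell from 21.8 to 6.93 CPM with HFD-NS at 6.41 CPM.

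Other genes lay between HFD-NS and SD-NS and were called against both. At a mean of 1 CPM, with no overlap and no predicted name, 2726 called genes were higher and 3128 lower than SD-NS. Of these, 71 higher and 44 lower genes lay in between. A larger set, 1689 higher and 1404 lower, was called against HFD-NS in the same direction as against SD-NS. Of all genes tested 36.8% were called in HFD-338 against HFD-NS, in either direction. Car3, the carbonic anhydrase of hepatocytes and fat, lay at 304, 311 and 185 CPM in SD-NS, 3281, 2943 and 3786 in HFD-NS and 793, 628 and 1303 in HFD-338 (against SD-NS adjusted p = 6.91e-05, log2 fold change 1.76, SE 0.25). Its difference from HFD-NS was -1.88 on the log2 scale (adjusted p = 6.85e-05). Aqp8, a water channel, lay at 18.1, 13.2 and 18.8 CPM in SD-NS, 105, 67.8 and 73.4 in HFD-NS and 56.1, 45.5 and 49.3 in HFD-338, with log2 fold changes of 1.59 against SD-NS and -0.71 against HFD-NS. Tmed5, a cargo receptor of the secretory pathway, was low in HFD-NS and lay in between at 776, 942 and 863 CPM in SD-NS, 248, 277 and 242 in HFD-NS and 416, 424 and 451 in HFD-338 (log2 fold changes -1.0 against SD-NS and 0.75 against HFD-NS). Gjc3, a connexin gene, lay at 14.6, 19.2 and 15.8 CPM in SD-NS, 1.28, 1.61 and 3.48 in HFD-NS and 4.79, 3.83 and 5.24 in HFD-338 (-1.83 and 1.09 in the same order). These fits share the HFD-338 libraries, and a gene called in both was not counted as 2 independent results.

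**Figure D5:**
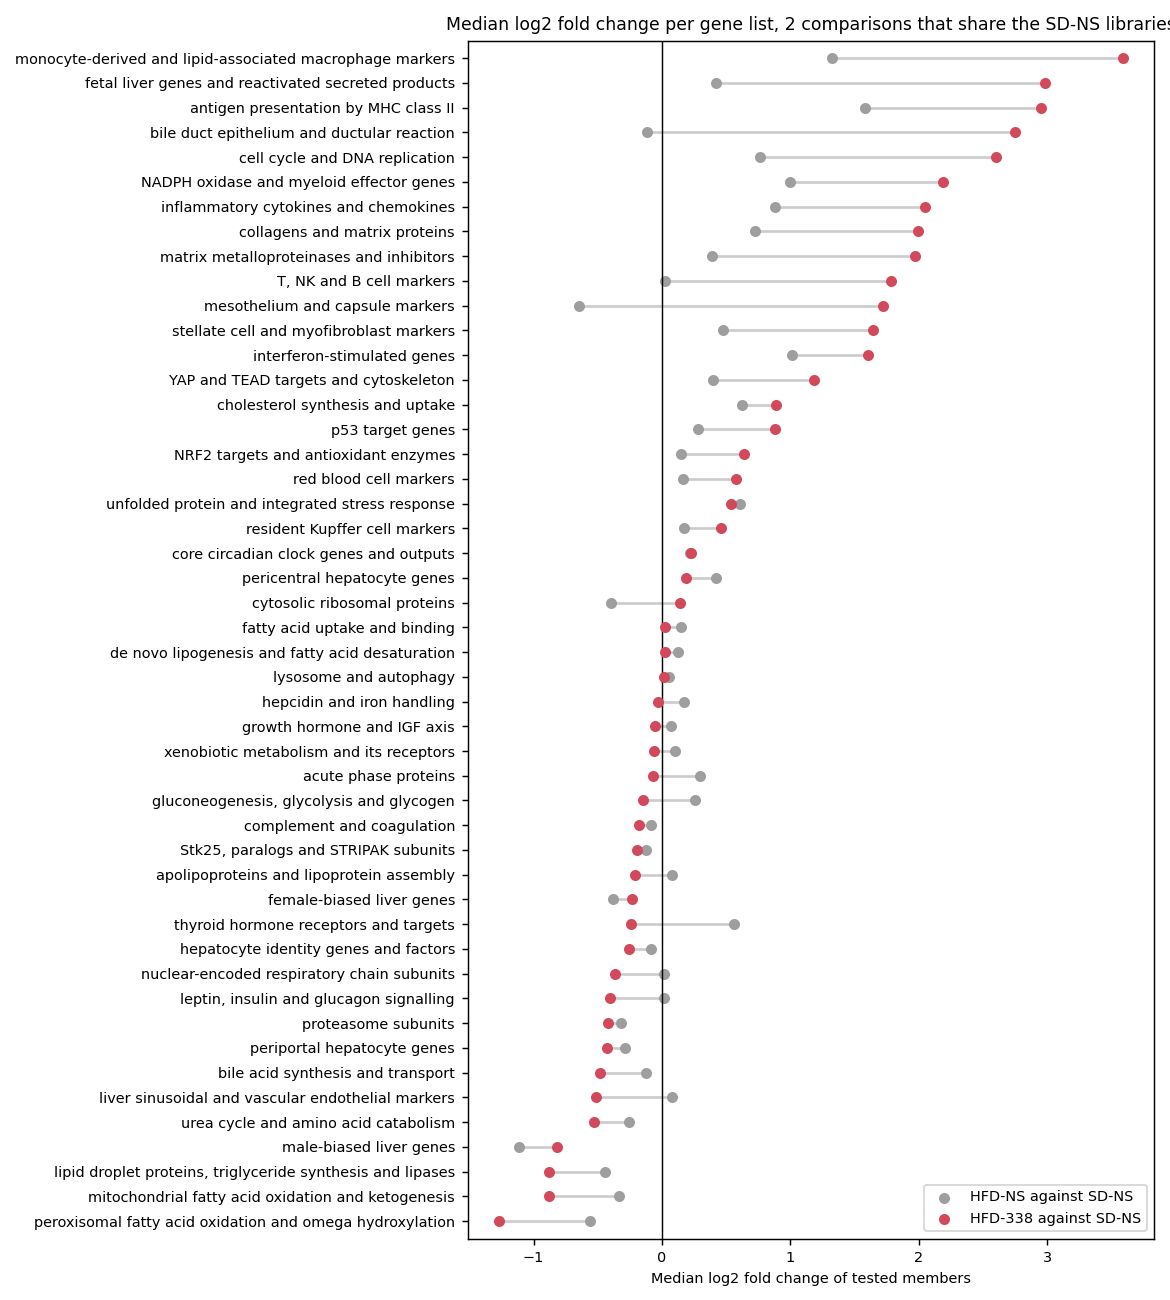
Median log2 fold change of the tested members of each gene list with at least 5 tested (vertical axis) for HFD-338 against SD-NS (red) and HFD-NS against SD-NS (grey), which share the SD-NS libraries; a line joins the 2 medians of a list. For bile duct genes the medians are 2.75 and -0.11, for collagens 1.99 and 0.72, for cholesterol synthesis 0.89 and 0.62, and for peroxisomal oxidation -1.27 and -0.56.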

How the data were processed

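Per the labels' protocols, liver RNA was extracted with TRIzol-chloroform and polyadenylated RNA was selected. Build mm39, featureCounts 2.0.1, STAR 2.7.10b, Bowtie 1.3.1 and Trim Galore 0.6.10 appear in the submitters' processing notes. Exonic reads were counted per gene by the authors, per the file headers, ignoring strand and giving a read to each gene it overlaps, and these raw counts were deposited. Overlapping genes therefore share reads, and close copies are uncertain. The 15 columns of a deposited TPM table were not used.

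Genes were kept by filterByExpr, and counts of all 15 libraries were scaled by TMM and fitted together with edgeR 4.0.16 in R 4.3.3 (robust quasi-likelihood test). SE is the absolute log2 fold change over the root of F. Values after ± are SDs over 3 libraries. In genes with no or 1 to 3 counts in a group, bounds and intervals cover counting error only. The procedure was tested on simulated counts. The list medians printed did not change when genes with no count in a group were set at their bound. A list held at most 2 such genes, so its median had little room to move. It does not show how far genes kept through other groups raise a list. The members and the 50 gene lists were chosen with earlier results of these data known. Named genes were called, did not overlap between groups, have no predicted name and reached a mean of 1 CPM in the 6 libraries. They are the 15 largest changes per direction, 3 per list and direction, 10 per direction at the HFD-NS level, beyond it or between both groups, and lineage, pathway and kinase genes named whatever their result. Promoter windows were matched to RefSeq by symbol and searched in Python. Alternatives were RLE, total counts, no filter, DESeq2 1.42.0, limma-voom, limma 3.58.1 on log2 of TPM plus 1, the 6 libraries alone and leaving out each library.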

Additional observations from a re-analysis of the deposited data

How the results depend on the processing

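The test called 3028 rises, 3396 falls and 2581 changes of at least 2-fold. With total counts and no scaling factor there were 5002 rises and 1327 falls, and with recomputed TPM 4265 rises and 1547 falls. These scales moved the median of all genes by 0.32 and 0.21, whereas the other alternatives moved it by at most 0.0512 in either direction. Leaving out each library in turn gave 2615 to 3107 rises, 2524 to 3264 falls and 2432 to 2744 changes of at least 2-fold. The remaining alternatives gave counts within 1.5 times these. No paired analysis was possible because the groups compared share no replicate number. Of 230 genes named and tested, 7 lost a call and 13 gained one under at least 1 alternative, and 0 reversed. The lists of bile duct, fetal liver, cell cycle, p53, matrix, stellate cell, lipid-associated macrophage, MHC class II, chemokine, interferon, endothelial, peroxisomal and cholesterol genes kept counts of rises and falls within 1.5 times, for counts of at least 3. SD-NS replicate 8 was the shallowest library compared.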

Other observations

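Several of the largest rises in HFD-338 belong to no list described above. Those without a count in SD-NS were tested only through their counts in other groups and could only rise. Lrtm2, a leucine-rich repeat membrane protein, had no count in SD-NS and lay at 7.95 CPM in HFD-338, at least 42.8-fold higher (adjusted p = 6.48e-07 by edgeR). Apela, a peptide ligand of the apelin receptor, was at least 32.9-fold higher, Igdcc4, an immunoglobulin superfamily protein, at least 24-fold, and Kif22, a chromosome-binding kinesin, at least 17.6-fold. Folh1, a glutamate carboxypeptidase, Fbn2, a fibrillin of developing matrix, and Spire2, an actin nucleator, had no count in SD-NS or HFD-NS and were at least 15.4-fold, 15.2-fold and 12.6-fold higher than SD-NS. Pls1, the plastin of intestinal microvilli, lay at 0.133, 0.194 and 0.563 CPM in SD-NS, 1.05, 0.621 and 0.632 in HFD-NS and 40.7, 45.5 and 34.8 in HFD-338 (adjusted p = 2.2e-08, log2 fold change 7.24, SE 0.503). Tinag, a basement membrane protein of kidney tubules, had 1 count in SD-NS and a pooled ratio of 171 (95% counting interval 30.5 to 6796). Atp8b5, a phospholipid flippase, had no count in SD-NS, 1.42 CPM in HFD-NS and 4.54 CPM in HFD-338.

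Falls outside the lists included Pitx3, Cpne5 and Lrrc15. Pitx3, a transcription factor known from lens and midbrain, lay at 8.65, 11.5 and 6.75 CPM in SD-NS, 2.22, 0.621 and 1.79 in HFD-NS and 0.456, 0.124 and 0.131 in HFD-338 (adjusted p = 1.2e-07, log2 fold change -5.11, SE 0.472). Cpne5, the gene of a copine, had 52 counts in SD-NS and 2 in HFD-338, a pooled ratio of 0.0255 (95% counting interval 0.0030 to 0.0967). Lrrc15, a leucine-rich repeat protein of fibroblasts, fell and lay at 4.53, 4.67 and 1.41 CPM in SD-NS, 1.63, 0.745 and 0.843 in HFD-NS and 0.342, 0.124 and 0.393 in HFD-338 (adjusted p = 3.62e-05, log2 fold change -3.62, SE 0.554).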
